A study of Homo sapiens with 9 samples.

Results

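The MYC, MAX and MXD network was followed as 10 genes, chosen by name for what their proteins do, with earlier results of these data known. These were MYC, MYCN and MYCL, their partner MAX, the antagonists MXD1, MXI1, MXD3, MXD4 and MNT, and MGA. All 10 were found by Ensembl identifier among the 60675 genes counted, and 9 had enough reads to enter the test over 19278 genes. MYCN did not. Each of the 9 had at least 214 reads in every library, so none entered through 1 group alone.

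The measurement was RNA-seq of LNCaP:C4-2, an established castrate-resistant prostate cancer cell line that is sensitive to enzalutamide, in 3 groups of 3 libraries. The cells carried lentiviral, doxycycline-inducible shRNA constructs and had been selected with puromycin. The groups were shScramble, an shRNA that targets no gene, shMETTL3 guide 2 and shMETTL3 guide 1. METTL3 is the catalytic subunit of the complex that writes N6-methyladenosine (m6A) on RNA. All groups were grown in medium with charcoal-stripped serum, which is poor in androgens, and were given 1 μg/ml doxycycline for 6 days. The sample titles of all groups also name a vehicle, without saying which. In the paper's androgen experiments the vehicle was ethanol. The labels do not say whether the 3 libraries of a group came from separate cultures, so the p-values measure only the spread between these libraries. Nor do they say how many clones the selected cells represent.

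MYC proteins bind DNA only as a pair with MAX, at E-boxes such as CACGTG, and raise transcription of genes for ribosome production, nucleotide synthesis, metabolism and cell division. MXD proteins and MNT compete for MAX and for the same sites, and repress through SIN3 and histone deacetylases. MGA also pairs with MAX and brings a variant Polycomb complex to such sites. In prostate cancer MYC is a frequently amplified oncogene, and its transcript is a known carrier of m6A.

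The shRNA targets are shown first because the groups rest on them. Both match the coding sequence of METTL3 on chromosome 14, minus strand, in GRCh38. The guide 1 target lies at chr14:21500633-21500653, in exon 6 of transcript METTL3-201. The guide 2 target spans a splice junction, with 12 bases in exon 4 at chr14:21501728-21501739 and, in capitals, 9 bases in exon 5 at chr14:21501121-21501129. Neither was found in any of 124 transcripts of the network genes.
guide 1: cgtcagtatcttgggcaagtt
guide 2: gctgcacttcagACGAATTAT

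METTL3 stood at 31.5 ± 1.59 CPM (TMM-scaled counts per 1000000 counts; SD, n = 3) with shScramble, 16.3 ± 0.423 with guide 2 and 29.7 ± 0.378 with guide 1. It fell with guide 2 (log2 fold change -0.95, SE 0.0687, edgeR adjusted p = 2.97e-12), and with guide 1 the value was -0.08 (adjusted p = 0.251). The guide 1 libraries are therefore called "labelled guide 1". TOX4, with 21713 reads over all libraries, shares 6.58% of the exon bases of METTL3 on the opposite strand. Its part in the METTL3 values was not tested. Total counts were 21899501 to 30897639 per library, so 3 reads corresponded to 0.0971 to 0.137 CPM. Cell type markers differed between the groups. The summed level of 10 luminal prostate markers was 2790 to 2826 CPM with shScramble, 3324 to 3450 with guide 2 and 1465 to 1508 with labelled guide 1, and none was at 0 in all libraries of a group. That of 10 basal and mesenchymal markers was 69.0 to 80.3, 62.5 to 66.6 and 232 to 252 CPM, with KRT5 and TP63 at 0 throughout. FN1 carried most of that sum with shScramble and guide 2, at 46.7 ± 6.25 and 60.3 ± 2.03 CPM (SD, n = 3; not called), while VIM was at 23.1 ± 0.711 and 3.56 ± 0.0475 CPM. Among luminal markers KLK3 fell with guide 2 (-0.82) while HOXB13 (0.78) rose, and KRT8 and KRT18 were at -0.14 and -0.12, not called. VIM, ZEB1, TWIST1, CAV1 and CD44, 5 of 6 tested, were called down with guide 2 and up with labelled guide 1. These shares of 83.3% stood beside 20.4% of all genes down with guide 2 and 21.2% up with labelled guide 1. TWIST1 had 1, 1 and 0 reads with guide 2, and CAV1 1, 4 and 2. CD44 had 2, 6 and 1 there and ZEB1 3, 10 and 4, so the size of these falls is uncertain. Most reads of TWIST1 and CD44 came from labelled guide 1, through which they entered the test. The part of these differences in the results below was not tested. In bulk RNA, fewer cells of a type and less RNA per cell cannot be told apart.

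MYC was the network gene that passed both limits of the test. Its level was 124, 124 and 127 CPM in the shScramble libraries, 233, 225 and 249 CPM with guide 2, and 141, 144 and 149 CPM with labelled guide 1. The 3 groups did not overlap, and the guide 2 libraries stood highest. MYC rose with guide 2 by 1.89-fold (log2 fold change 0.92, SE 0.0461, 95% interval 0.80 to 1.03, edgeR adjusted p = 1.67e-15). In the libraries labelled guide 1 the difference from shScramble was 0.21 (SE 0.0462, adjusted p = 0.000246), which is below the 1.5-fold limit. Set directly against each other, MYC was 1.63-fold higher with guide 2 than with labelled guide 1 (0.71, SE 0.0458, adjusted p = 5.78e-14). Scaled by total count alone this was 0.57, below the fold limit. The first 2 of these comparisons share the same shScramble libraries. In the authors' GRCh38 coordinates MYC lies at chr8:127735434-127741434, MYCN at chr2:15940564-15947007, MYCL at chr1:39895426-39902256, MAX at chr14:65006174-65102695 and MGA at chr15:41621224-41773081. The antagonists lie at chr2:69897688-69942945 (MXD1), chr10:110207605-110287365 (MXI1), chr5:177301461-177312757 (MXD3), chr4:2247432-2262294 (MXD4) and chr17:2384060-2401118 (MNT).

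A gene was called when its Benjamini-Hochberg adjusted p over all tested genes was under 0.05 and it differed by at least 1.5-fold. By this rule MYC was the only 1 of the 9 tested network genes called with guide 2, where 29.3% of all tested genes were called, 8.85% up and 20.4% down. An adjusted p under 0.05 alone was reached by 7 of the 9 (61.8% of all genes), and 8 of the 9 had groups that did not overlap (66.5% of all genes). With labelled guide 1, 0 of the 9 were called by edgeR or DESeq2, against 37.7% of all genes, 21.2% up and 16.5% down. At an unadjusted p under 0.05, 2 were higher there and 0 lower. These were MYC and MXD1, the 2 with an adjusted p under 0.05 (68.4% of all genes) and with groups that did not overlap (71% of all genes). Between guide 2 and labelled guide 1, edgeR called MYC alone, against 47.3% of all genes, 19.1% up and 28.2% down. There 8 of the 9 had an adjusted p under 0.05 (74.6% of all genes) and 7 had groups that did not overlap (75.8% of all genes). The median log2 fold change of the 9 was 0.11 with guide 2, 0.01 with labelled guide 1 and 0.18 between them, beside -0.04, -0.02 and -0.06 over all tested genes.

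**Figure D1:**
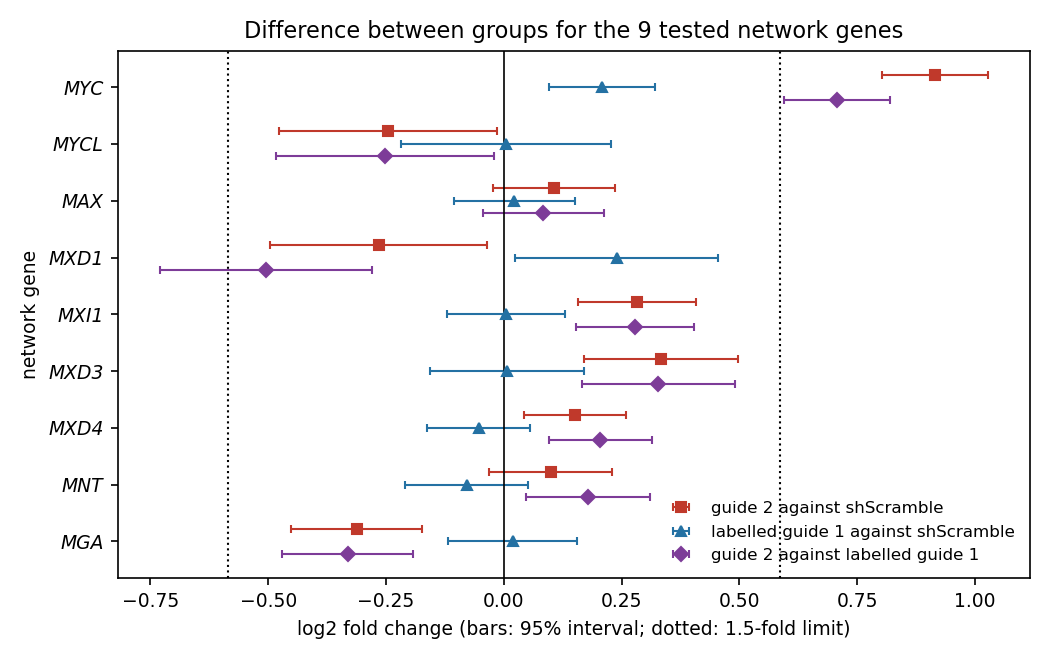
Log2 fold change of the 9 tested network genes in each of the 3 comparisons, with bars for the 95% interval and dotted lines at the 1.5-fold limit. MYC is the only gene past the limit, at 0.92 with guide 2 against shScramble and 0.71 with guide 2 against labelled guide 1.

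The other MYC family genes carried little RNA in these cells. MYCL, first described in lung cancer, was at 20.2, 20.4 and 16.7 CPM with shScramble, 18.5, 15.9 and 14.1 CPM with guide 2, and 18.2, 18.9 and 20.7 CPM with labelled guide 1. The groups overlapped, and the guide 2 difference of -0.25 (SE 0.0947, adjusted p = 0.0264; -0.40 when scaled by total count) was below the fold limit. MYCN, the neuroblastoma oncogene that is also linked to neuroendocrine prostate cancer, had 6, 5 and 2 reads with shScramble, 2, 0 and 0 with guide 2, and 12, 9 and 9 with labelled guide 1. Guide 2 was at or under the limit of 3 reads in every library, so no fold change is given. Without the filter on low counts, edgeR called MYCN lower with guide 2 than with labelled guide 1 (adjusted p = 0.000929), as did DESeq2 (adjusted p = 0.00898), and neither called it against shScramble. Counted per kb of exon, MYC made up 91.6% of the family's RNA with shScramble, 96.1% with guide 2 and 92.4% with labelled guide 1.

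MAX, the shared partner, was not called in any comparison. It was at 65.0, 67.9 and 68.4 CPM with shScramble, 73.9, 71.8 and 70.9 CPM with guide 2, and 73.3, 63.7 and 67.4 CPM with labelled guide 1. The guide 2 libraries lay above those of shScramble, and labelled guide 1 spanned both. The guide 2 difference was 0.11 (95% interval -0.02 to 0.24, adjusted p = 0.082), and it became -0.04 when libraries were scaled by total count alone.

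Among the MXD genes, which are known to rise as cells leave the cycle and differentiate, MXD1 and the others differed from shScramble in opposite directions with guide 2. MXD1 was at 11.29, 10.96 and 12.004 CPM with shScramble, 9.28, 9.41 and 9.75 CPM with guide 2, and 14.2, 13.5 and 12.7 CPM with labelled guide 1. The 3 groups did not overlap, with guide 2 lowest and labelled guide 1 highest. The differences from shScramble were -0.27 (SE 0.0938, adjusted p = 0.0161) and 0.24 (SE 0.0879, adjusted p = 0.0178), and guide 2 was 0.51 below labelled guide 1 on the log2 scale (log2 fold change -0.51, adjusted p = 1.79e-05). None of these reached 1.5-fold. Scaled by total count, the guide 2 values were -0.42 against shScramble and -0.64 against labelled guide 1, and the latter was called. SNRNP27 shares 3.73% of the exon bases of MXD1 on the same strand. It differed from shScramble by -0.13 with guide 2 and 0.57 with labelled guide 1, and its part in the MXD1 values was not tested.

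MXI1, MXD3 and MXD4 were each higher in every guide 2 library than in any shScramble library, by less than 1.5-fold. MXI1, encoded on a chromosome arm that is often lost in prostate cancer, was at 72.9, 74.7 and 70.1 CPM with shScramble, 92.5, 86.5 and 86.1 CPM with guide 2, and 70.4, 77.6 and 70.6 CPM with labelled guide 1. The guide 2 difference was 0.28 (SE 0.0512, adjusted p = 2.79e-05; 0.13 when scaled by total count), while labelled guide 1 overlapped shScramble.

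MXD3, the family member expressed in dividing cells, was at 22.6, 22.6 and 22.9 CPM with shScramble, 29.3, 29.2 and 27.2 CPM with guide 2, and 22.01, 22.64 and 23.68 CPM with labelled guide 1 (guide 2 difference 0.33, SE 0.0667, adjusted p = 9.86e-05; 0.18 when scaled by total count). Its value is less certain than the others, because 22.5% of its exon bases are shared with PRELID1 on the opposite strand and 18.0% with RAB24 on the same strand, and the strand setting of the counting was not given in the sources used here. With guide 2 the log2 fold change was 0.50 for PRELID1 and -0.69 for RAB24, and their part in the MXD3 value was not tested. MXD4 was at 124, 130 and 123 CPM with shScramble, 143, 136 and 140 CPM with guide 2, and 118, 121 and 124 CPM with labelled guide 1. Its guide 2 difference was 0.15 (SE 0.0446, adjusted p = 0.00468), and scaling by total count alone brought it to 0.00.

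MNT, the most widely expressed of the antagonists, was at 56.4, 55.6 and 53.5 CPM with shScramble, 59.4, 60.4 and 57.6 CPM with guide 2, and 49.2, 55.4 and 52.2 CPM with labelled guide 1. The guide 2 libraries lay above both other groups. The difference was 0.10 against shScramble (adjusted p = 0.11; -0.05 when scaled by total count) and 0.18 against labelled guide 1 (adjusted p = 0.0041).

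MGA was at 90.1, 83.8 and 88.6 CPM with shScramble, 70.1, 76.9 and 64.1 CPM with guide 2, and 88.3, 93.1 and 84.6 CPM with labelled guide 1. All guide 2 libraries lay below all others. The difference was -0.31 against shScramble (SE 0.0570, adjusted p = 3.29e-05) and -0.33 against labelled guide 1 (adjusted p = 8.37e-06), below the fold limit in both.

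Levels of different genes were compared per kb of exon. With shScramble the order was MYC at 41.7 ± 0.592 CPM per kb (SD, n = 3), MXD4 at 17.8 ± 0.49995, MXI1 at 15.8 ± 0.507, MAX at 15.1 ± 0.414, MNT at 6.32, MGA at 4.96, MXD3 at 4.404, MYCL at 3.78, MXD1 at 1.80 and MYCN at 0.0562. Only MXI1 and MAX overlapped among neighbours in that order. With guide 2, MYC reached 78.6 ± 4.07 CPM per kb and MXD3, at 5.55, stood above MGA, at 3.99. There MXD4 overlapped MXI1, and MGA overlapped MYCL. With labelled guide 1, MYC was at 48.1 ± 1.35 CPM per kb, MXD4 overlapped MXI1 and MXI1 overlapped MAX, and the order of the genes was that of shScramble. The length used is the sum of all annotated exons, which can exceed that of the transcript a cell makes.

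**Figure D2:**
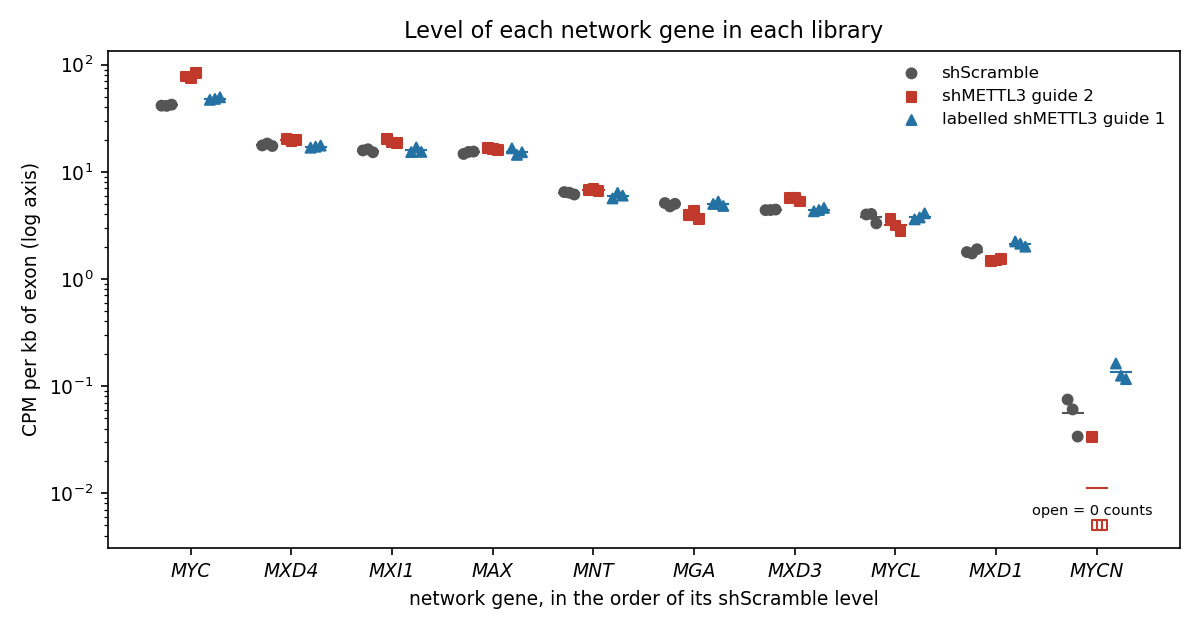
CPM per kb of exon (log axis) of the 10 network genes in each of the 9 libraries, with a line at each group mean and open squares for 0 reads. MYC stands highest in every library, at a mean of 41.7 with shScramble, 78.6 with guide 2 and 48.1 with labelled guide 1, and MYCN lowest.

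The ratio of MYC to MAX RNA, each per kb, was 2.82, 2.69 and 2.74 with shScramble, 4.66, 4.63 and 5.19 with guide 2, and 2.84, 3.33 and 3.26 with labelled guide 1. The guide 2 libraries stood apart, and 1 library of labelled guide 1 lay close to shScramble. MYC relative to the sum of MXD1, MXI1, MXD3, MXD4 and MNT was 0.905 ± 0.0319 (SD, n = 3) with shScramble, 1.49 ± 0.0946 with guide 2 and 1.06 ± 0.0345 with labelled guide 1, and the groups did not overlap. The sum itself was 46.1 CPM per kb with shScramble, 52.8 with guide 2 and 45.5 with labelled guide 1. Unlike the ratios, it depends on the scaling. Scaled by total count, the guide 2 log2 differences of its genes were 0.00 (MXD4), 0.13 (MXI1), 0.18 (MXD3), -0.05 (MNT) and -0.42 (MXD1). Without MXD3 the ratios were 1.00, 1.67 and 1.17. These are ratios of RNA, not of protein, and were not tested.

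**Figure D3:**
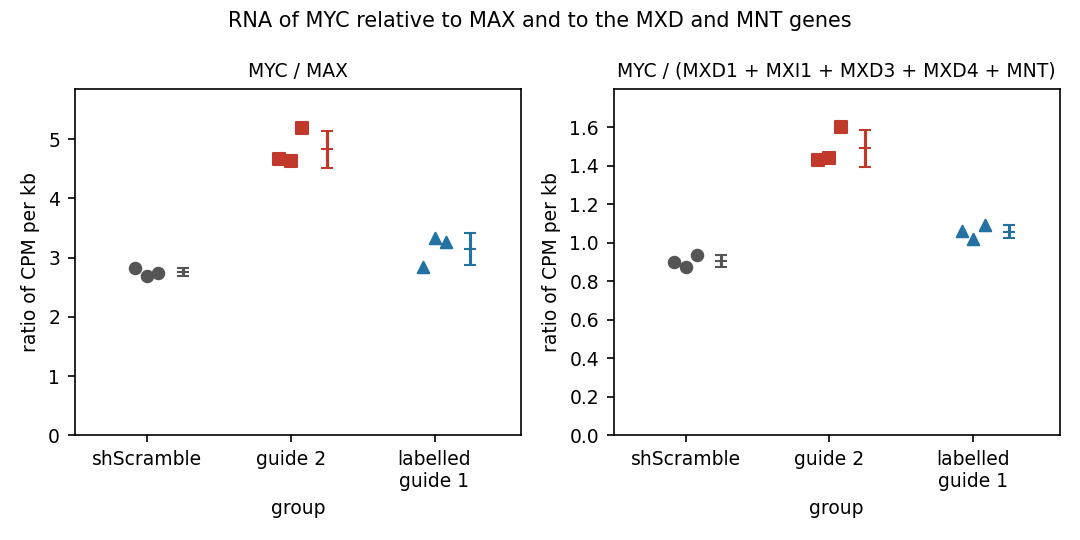
Ratio of MYC to MAX (left) and of MYC to the summed MXD and MNT genes (right), from CPM per kb, in each library, with the mean and SD of each group beside the points. The guide 2 libraries are highest in both, at means of 4.83 and 1.49 against 2.75 and 0.905 with shScramble.

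Short windows before gene starts are shown next, since the E-box is the letters its members read. The letters CACGTG, the same on both strands, were searched in the 250 bases before each start in RefSeq promoters (GRCh38.p14), which matched 9 of the 10 network genes, all but MYC. They were present for 2 of these 9, MNT and MXD4, and for 7.73% of 27305 genes. Among genes of the MYC-activated lists described next, 15 of 59 with a promoter in the table held them. The 4 of these that rose with guide 2 were SRM, LDHA, MCM7 and IMP4, so 4 of 21 genes called up held the letters and 11 of 38 not called did. A match is a description of letters and not a measured binding site. The windows of both network genes and of these targets are printed with the E-box in capitals, at chr17:2401228-2401273 (MNT, minus strand), chr4:2262322-2262359 (MXD4, minus), chr1:11060192-11060237 (SRM, minus), chr11:18394456-18394501 (LDHA, plus, the nearer of its matches), chr7:100101398-100101442 (MCM7, minus) and chr2:130342674-130342719 (IMP4, plus).
MNT: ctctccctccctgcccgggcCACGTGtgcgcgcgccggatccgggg
MXD4: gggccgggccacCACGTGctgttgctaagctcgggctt
SRM: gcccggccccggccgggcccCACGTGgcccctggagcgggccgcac
LDHA: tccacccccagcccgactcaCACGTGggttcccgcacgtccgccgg
MCM7: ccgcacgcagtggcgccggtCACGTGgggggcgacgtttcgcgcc
IMP4: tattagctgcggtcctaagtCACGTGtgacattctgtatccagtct

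Genes known as targets of MYC were mostly higher with guide 2, and also in the libraries labelled guide 1. Their lists, too, were chosen with earlier results of these data known. Of 72 genes known to be activated by MYC, 25 rose with guide 2 and 1 fell (34.7% up, beside 8.85% of all genes), and 65 were above 0 (46.8% of all genes were), with a median log2 fold change of 0.44. With labelled guide 1, where MYC differed by 0.21, 31 of the 72 rose and 0 fell (43.1% up, beside 21.2% of all genes), and 56 were above 0 (49.0% of all genes were), with a median of 0.52. Between guide 2 and labelled guide 1, 12 were called higher and 12 lower (16.7% each), with a median of -0.04. These shares lie below the 19.1% up and 28.2% down of all genes. Scaled by total count alone, 13 rose and 2 fell with guide 2, and the median was 0.29. Of all 19278 genes, 1012 rose and 4865 fell in that setting. Of the target genes named here, GRWD1, RRP9, IMP4, SRM, LDHA, EIF5A and NDRG2 were not called with guide 2 under that scaling.

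By function, 7 of 29 ribosome biogenesis genes rose with guide 2 (24.1%, beside 8.85% of all genes) and 12 with labelled guide 1 (41.4%, beside 21.2%). The first count was 1 when scaled by total count and 5 with a filter at a mean of 1 CPM. Scaled by total count, 1012 of 19278 genes rose, so 1 of 29 was not above the share of all genes. With the filter, 1247 of 15442 genes rose. Those with the largest rise with guide 2 were TCOF1, a nucleolar factor for ribosomal RNA transcription (0.80 with guide 2 and 1.63 with labelled guide 1), GRWD1, a ribosomal protein chaperone (0.71 and 0.66), and RRP9 (0.69 and, not called, -0.33). Of 14 nucleotide and polyamine genes, 6 (42.9%) and 9 (64.3%) rose, and 4 with guide 2 when scaled by total count. TYMS, thymidylate synthase, rose by 0.99 and 0.90, PAICS, a purine synthesis enzyme, by 0.92 and 0.80, and NME1, a nucleoside diphosphate kinase, by 0.83 with guide 2, beside 0.11 with labelled guide 1. SRM, spermidine synthase, rose by 0.70 and 0.62.

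Of 14 metabolic genes, 6 rose with guide 2 (42.9%, beside 8.85% of all genes; 3 when scaled by total count) and 3 with labelled guide 1 (21.4%), a share near the 21.2% of all genes. TFRC, the transferrin receptor, stood at 221 ± 14.5 CPM with shScramble, 529 ± 9.77 with guide 2 and 155 ± 7.43 with labelled guide 1 (SD, n = 3), and rose by 1.26 with guide 2. PKM, pyruvate kinase, rose by 0.84 with guide 2 (0.16 with labelled guide 1), and SLC19A1, the reduced folate carrier, by 0.79 and 1.22. Of 6 translation factors, EIF5A rose with guide 2 (0.64; 16.7%, beside 8.85% of all genes) and 0 were called with labelled guide 1 by edgeR or DESeq2. Scaled by total count, 0 of the 6 rose and 1 fell with guide 2.

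Cell cycle targets had the highest list medians, 0.92 with guide 2 and 1.82 with labelled guide 1. Of 9, 5 rose and 1 fell with guide 2 (55.6% up, beside 8.85% of all genes), and 7 rose with labelled guide 1 (77.8%, beside 21.2%). MCM7, a subunit of the replicative helicase, was at 132 ± 8.85, 372 ± 5.72 and 404 ± 8.64 CPM and rose by 1.49 and 1.61. E2F1 rose by 1.33 and 1.32, and MCM5 by 1.16 and 1.82. CCND2, cyclin D2, went the other way. It had 164, 186 and 133 reads with shScramble, 13, 6 and 6 with guide 2, and 1356, 1247 and 1301 with labelled guide 1, with no overlap, and it fell by 3.97 on the log2 scale with guide 2 and rose by 3.00 with labelled guide 1.

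Of 10 genes known to be repressed by MYC, 5 fell and 1 rose with guide 2 (50% down, beside 20.4% of all genes; median -0.57). With labelled guide 1, 1 fell and 2 rose (median -0.19), shares of 10% and 20% that are near or below the 16.5% and 21.2% of all genes. CDKN2B, a CDK inhibitor, fell by 1.58 with guide 2 and rose by 1.34 with labelled guide 1. GAS1, a growth arrest gene, fell by 1.41 and rose by 3.16. NDRG1, a stress and differentiation gene regulated by androgen, fell by 1.17 with guide 2. With labelled guide 1 it was 0.31 higher than with shScramble, not called. NDRG2 rose by 0.60 with guide 2. CDKN1A, encoding p21, fell by 0.73 and 0.81. It was named after its values were seen.

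Cofactors of the network were also followed. Of 11 SIN3 corepressor genes, 0 were called with guide 2 by edgeR or DESeq2 (median 0.07, or -0.08 when scaled by total count), and HDAC2 (0.76) and SAP30 (0.85) rose and SAP18 (-0.69) fell with labelled guide 1 (18.2% up and 9.09% down, not above the 21.2% and 16.5% of all genes). Of 16 MYC coactivator genes, 2 rose with guide 2, the helicase RUVBL1 and the acetyltransferase KAT2A (0.64 each). RUVBL2 (0.72) and WDR5 (0.63) rose with labelled guide 1. The share of 12.5% in both is near the 8.85% of all genes with guide 2 and below the 21.2% with labelled guide 1. Scaled by total count, 0 coactivators were called with guide 2.

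Of 15 genes whose products set the stability of MYC protein, SKP2, a ubiquitin ligase subunit for MYC, rose with guide 2 (0.72), and FBXO32, another ligase subunit, fell (-0.91). These shares of 6.67% lie below the 8.85% up and 20.4% down of all genes. With labelled guide 1, 6 rose (40%, beside 21.2% of all genes) and 1 fell (6.67%, beside 16.5%). Those that rose were PIM1, a kinase (1.28), CIP2A, an inhibitor of the phosphatase PP2A (0.92), SKP2 (0.92), FBXO32 (0.86), BTRC and GSK3A. BTRC was at 23.5 CPM with shScramble and 45.5 with labelled guide 1, and GSK3A at 43.4 and 67.5. GSK3B was the 1 that fell, from 199 ± 4.75 CPM with shScramble to 121 ± 7.04 with labelled guide 1 (SD, n = 3). SKP2 was not called with guide 2 when scaled by total count.

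MGA acts within a Polycomb complex, and of 10 of that complex's genes 3 rose with guide 2 and 3 with labelled guide 1 (30% in both, beside 8.85% and 21.2% of all genes). CBX1 (0.83) and CBX3 (0.69), chromodomain proteins of heterochromatin, rose with guide 2, PCGF6 (1.54) and RNF2 (0.82) with labelled guide 1, and TFDP1 in both (0.62 and 0.70). Scaled by total count, only CBX1 of the 3 was called with guide 2. MLX, a MAX-like protein, pairs with the nutrient sensors MLXIP and MLXIPL. MLX was 0.44 above shScramble with guide 2, not called, and was higher than with labelled guide 1 (0.70, adjusted p = 4.32e-13; 0.56 and not called when scaled by total count). TXNIP, the best known target of these pairs and an inhibitor of glucose uptake, was at 577 ± 40.0 CPM with shScramble, 256 ± 6.42 with guide 2 and 314 ± 23.0 with labelled guide 1 (SD, n = 3). It fell by 1.17 and 0.88. Its relative ARRDC4 fell with guide 2 (-0.66) and rose with labelled guide 1 (0.69).

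PVT1, the long noncoding gene next to MYC, was at 21.2, 25.1 and 24.5 CPM with shScramble, 13.7, 18.2 and 15.6 CPM with guide 2, and 17.3, 17.2 and 15.8 CPM with labelled guide 1. All shMETTL3 libraries lay below all shScramble libraries. The differences were -0.57 (adjusted p = 4.84e-06) and -0.49 (adjusted p = 1.94e-05), so PVT1 was lower while MYC, its neighbour, was higher. It missed the fold limit narrowly and was past it with guide 2 in 5 of 13 alternatives. PVT1 was named after its values were seen. MIR17HG, host gene of a microRNA cluster that MYC activates, was at 3.27, 2.29 and 2.37 CPM with shScramble, 1.78, 1.52 and 1.09 CPM with guide 2, and 10.3, 8.89 and 8.36 CPM with labelled guide 1. It fell with guide 2 (-0.86, adjusted p = 0.000866) and rose with labelled guide 1 (1.79, adjusted p = 4.56e-11).

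**Figure D4:**
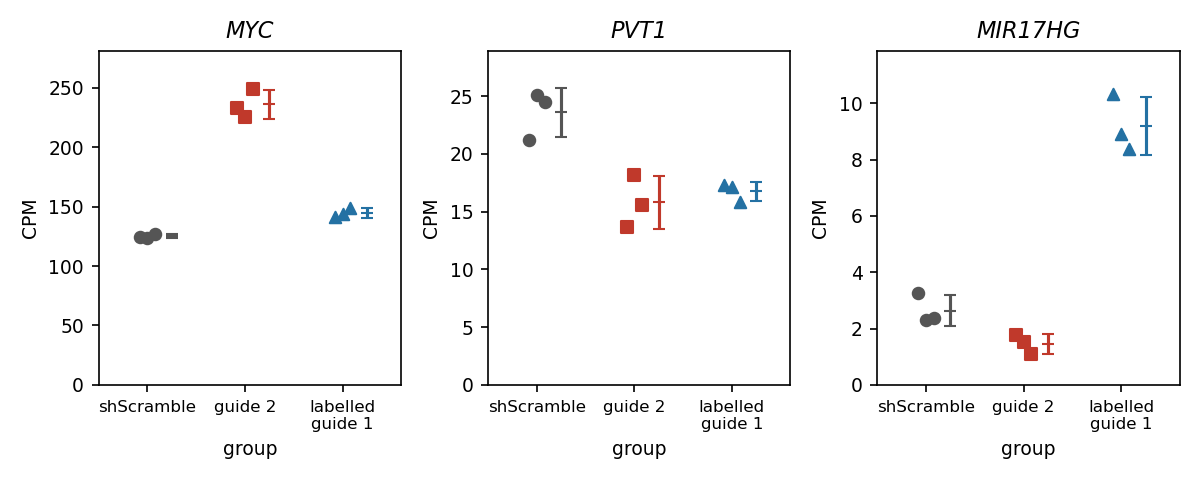
CPM of MYC, PVT1 and MIR17HG in each library, with the mean and SD of each group beside the points, each panel on its own axis from 0. MYC is highest with guide 2 (225 to 249), PVT1 is highest with shScramble (21.2 to 25.1) and MIR17HG is highest with labelled guide 1 (8.36 to 10.3).

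A list of 8 RNA-binding proteins known to bind MYC RNA held m6A readers and others, such as ELAVL1 and CELF1, that bind AU-rich or GU-rich elements. Of the 8, IGF2BP1 and IGF2BP2, which stabilise bound transcripts, fell with guide 2 (-2.36 and -2.35; 25% of the list, beside 20.4% of all genes) and rose with labelled guide 1 (3.22 and 3.10; 25%, beside 21.2%). IGF2BP1 was at 14.5 ± 1.66 CPM with shScramble, 2.81 ± 0.760 with guide 2 and 134 ± 6.16 with labelled guide 1. MYC was above shScramble in both, and the part of these genes in its level was not tested. IGF2BP3, not called against shScramble, was lower with guide 2 than with labelled guide 1 (-0.67, adjusted p = 1.82e-10). Its level was 37.5 CPM with shScramble, 34.6 with guide 2 and 55.4 with labelled guide 1.

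The genes outside the network with a pattern most like that of MYC were RHOB, a small GTPase, KPNA2, a nuclear import receptor, and TTLL12. Their root mean square differences from MYC were 0.0470, 0.0479 and 0.0566 in centred log2 CPM over the 9 libraries, out of 10357 genes that averaged 10 CPM or more. RHOB differed from shScramble by 0.98 with guide 2 and 0.22 with labelled guide 1, KPNA2 by 0.86 and 0.23, and TTLL12 by 0.84 and 0.17.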

How the data were processed

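The authors trimmed adapters with Trim Galore and cutadapt, checked reads with FastQC, mapped them to GRCh38 using STAR and counted them per gene by featureCounts, per the labels and the paper. They deposited raw counts per gene and library, with exon coordinates and a summed exon length (another unit, in bases), which was used for CPM per kb. The strand setting and the treatment of reads matching several genes were not given in the sources used here. Symbols were matched for 56558 of 60675 identifiers (93.2%), and 0 rows named no gene.

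Groups came from the sample titles. Counts were scaled by TMM and filtered by filterByExpr (minimum count 10, minimum total 15), and 19278 genes were tested with edgeR 4.0.16 (R 4.3.3), quasi-likelihood F test with robust estimation, all 9 libraries in 1 fit and no covariates. Intervals of 95% used 6 residual degrees of freedom. Replicates varied by a biological coefficient of variation of 0.0512. Called genes had a Benjamini-Hochberg adjusted p under 0.05 and at least a 1.5-fold difference. DESeq2 1.42.0, other scalings, filters, samples, a replicate block and leaving out each library were alternatives. The script was tested on simulated data.

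The members and gene lists were chosen with earlier results of these data known, from what the genes are known to do. Named were the members, METTL3, for each list up to 3 genes with the largest rise and 3 with the largest fall with guide 2 among those called in any of the 3 comparisons, and the 3 genes most like MYC. Others are marked, or are given as holders of an E-box, as called with labelled guide 1, as markers, as examples of what a list holds or as overlapping genes. List genes matched in the files numbered 182 of 184. Sequences came from the labels and from RefSeq, checked against GRCh38.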

Additional observations from a re-analysis of the deposited data

Results flagged for a closer look

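MYC differed between the guide 2 libraries and those labelled guide 1. It was 0.71 higher on the log2 scale with guide 2 than in the libraries labelled guide 1 (edgeR's quasi-likelihood test of the 2 groups against each other, adjusted p = 5.78e-14), with 225 to 249 CPM against 141 to 149 CPM and no overlap between the 3 libraries of each. Scaled by total count alone the difference was 0.57, below the 1.5-fold limit. METTL3 was lower in the guide 2 libraries and was not lowered in those labelled guide 1.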

How the results depend on the processing

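MYC kept its call and direction with guide 2 under all 13 alternatives (0.76 to 0.95). Over the log2 fold changes of the 9 tested genes, 331 values kept direction and call, 18 reversed, 1 lost its call and 1 gained one. Scaling by library size alone moved the median of all genes by -0.15 with guide 2. Under it MAX (-0.044) and MNT (-0.051) reversed with guide 2, MAX between guides (-0.053), and MYCL (-0.0079), MXD3 (-0.0073) and MXI1 (-0.0080) with labelled guide 1. Between guides MYC then missed the fold limit (0.57) and MXD1 passed it (-0.64), so 0 network genes were called up and 1 down, and 1012 genes were called up with guide 2. A mean of at least 1 CPM reversed MYCL (-0.000146) and MXI1 (-0.000669) with labelled guide 1. Leaving out 1 library reversed some differences near 0 with labelled guide 1, with ranges of -0.028 to 0.063 for MAX, -0.023 to 0.054 for MGA, -0.020 to 0.035 for MXD3, -0.082 to 0.049 for MYCL and -0.049 to 0.033 for MXI1. Without the fold limit, 5792 genes were called up and 6118 down with guide 2, 6818 and 6370 with labelled guide 1, and 6693 up between guides, and network genes numbered 4 up and 3 down, 2 up, and 5 up and 3 down. With no filter, and with DESeq2, 1 network gene, MYCN, was called down between guides. The causes were not tested, beyond the change in scaling or rule itself.

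Deviations of same-numbered libraries from their group means correlated at -0.456 to -0.0817 in pairs with shScramble. Between guide 2 and labelled guide 1 the correlations were 0.0279 to 0.228. With the replicate number as a block, 1670 genes were called up and 3824 down with guide 2, and no call of a network gene changed. Depth limited MYCN, which had 12 reads at most.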
